A study of Mus musculus with 12 samples.

Results

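The core histone oligos are 14 of the 35852 oligos on a mouse expression array. They were chosen by sequence alone. Each oligo was translated in its 3 forward frames and searched for 15 short protein stretches of 6 or 7 residues that are conserved in histones H2A, H2B, H3 and H4. Only 5 of the 15 stretches were found, and none of them on the reverse strand. They gave 7 oligos for H4, 3 for H3, 3 for H2B and 1 for H2A, all of 60 bases with 1 spot each per array. The files do not pair oligos with genes, so members are given by identifier.

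Spleen RNA was measured on 12 arrays, 1 sample each, all from female mice. The 564 Igi strain is a knock-in on a C57BL/6 background, in which both antibody chains of a self-reactive antibody are expressed from the native immunoglobulin loci. It gave 3 samples at 4 months, 3 at 8 months and 4 at 12 months. C57BL/6 mice without the knock-in were sampled at 4 months only (n = 2), so the older 564 Igi groups differ from them in age as well as genotype. The sample descriptions give the knock-in as 564+/-, whereas the treatment text says that animals homozygous at both loci (564+/+) were used, and the files do not settle which applies. Part of the homozygous colony drank water with ampicillin, metronidazole, neomycin and vancomycin, and the labels do not say whether these samples came from it. The labels do not tie samples to separate animals, and p-values then describe only how these samples vary, which may be technical.

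Every array compared spleen RNA, labelled with Cy3, with a universal reference RNA, labelled with Cy5. Values are log2 of spleen over reference, so 0 means equal signal and 1 means a doubled one. Dyes were not swapped, so the distance of an oligo from 0 cannot be told apart from a dye effect, while differences between arrays share it. The arrays lay on 3 slides, which were also scanned as sets. C57BL/6 was present once on slide 2 and once on slide 3 but not on slide 1, whose 4 arrays were all 564 Igi. The share of oligos with a Cy3 signal well above background was 69.4% to 75.9% on 11 arrays and 91.2% on 564 Igi 4 months replicate 1. All 168 member spots were well above background in Cy3, none was saturated, and all 14 oligos were tested.

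Core histones are the proteins around which DNA is wound. A pair each of H3 and H4 forms the centre of the nucleosome, and H2A and H2B join it as dimers. Most of their messages come from clustered gene copies, are made while a cell replicates its DNA, and end in a stem-loop in place of a poly(A) tail, whereas replacement variants come from single genes with polyadenylated messages. In the spleen, dividing erythroid precursors and activated lymphocytes are the textbook sources of replication-linked histone messages. The gene copies of one histone encode nearly the same protein with different bases, and a long oligo can bind more than 1 of them. The labels describe reverse transcription with labelled nucleotides and name no primer.

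The H4 oligos cover the end of the basic tail, the part that carries acetylated lysines. They use 5 different codings of the same protein stretch. The sequences below show how near these copies are, and capitals mark the bases that encode the searched stretch. M400007082 and M400008877 differ at 1 of the 51 bases they share, M400008874 differs from M400008877 at 4 of 51, and M400007604 differs from M400008877 at 11 of 54.
M400007082: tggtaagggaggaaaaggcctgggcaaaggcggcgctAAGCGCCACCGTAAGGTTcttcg
M400008874: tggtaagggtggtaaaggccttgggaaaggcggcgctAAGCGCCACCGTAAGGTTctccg
M400008877: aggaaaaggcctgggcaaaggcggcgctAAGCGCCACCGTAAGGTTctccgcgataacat
M400007604: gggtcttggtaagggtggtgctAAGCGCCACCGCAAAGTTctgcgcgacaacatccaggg
M400008862: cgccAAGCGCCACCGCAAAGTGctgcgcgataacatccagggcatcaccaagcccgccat

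The H3 oligos cover a stretch of the folded core shared by replication-linked and replacement H3. M400012462 and M400012464 hold the same sequence at different places on the array and so measure technical error. M400006309 differs from them at 3 of 60 bases.
M400012464: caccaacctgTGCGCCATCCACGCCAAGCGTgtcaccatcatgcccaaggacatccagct
M400006309: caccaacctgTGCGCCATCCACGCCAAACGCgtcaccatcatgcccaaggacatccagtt

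Of the H2B oligos, M400008873 and M400012461 overlap by 50 bases with 1 difference and cover the fold, whereas M400007964 lies nearer the end of the protein, where H2B is ubiquitinated.
M400008873: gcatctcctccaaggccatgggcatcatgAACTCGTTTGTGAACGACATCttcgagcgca
M400012461: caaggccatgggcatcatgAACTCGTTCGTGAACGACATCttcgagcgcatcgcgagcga
M400007964: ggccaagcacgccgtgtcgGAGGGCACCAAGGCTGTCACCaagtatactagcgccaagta

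The single H2A oligo was found by a stretch near the end of the histone fold. The bases before that stretch encode the residues of macroH2A, a large replacement variant associated with silent chromatin, by general knowledge and not by a protein table. It is therefore no measure of replication-linked H2A.
M200006926: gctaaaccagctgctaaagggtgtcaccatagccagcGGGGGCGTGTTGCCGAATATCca

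Across the 7 tests made, which are 6 comparisons of groups and an F test over the 3 ages of 564 Igi, no histone oligo had an adjusted p under 0.05 (limma, Benjamini-Hochberg over 26278 oligos). A p that misses the threshold does not show that groups are alike, and the 95% intervals below give the sizes that the arrays leave possible. The arrays hold whole spleen, in which fewer cells of a type and less RNA per cell cannot be told apart.

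At 4 months 564 Igi and C57BL/6 were compared at the same age, the only age shared by both strains. In it, 13 of 14 histone oligos had a difference above 0, beside 51.9% of all oligos, with a median of 0.33 beside 0.01 over all oligos tested. None was called, beside 0.407% of all oligos, and 4 of 14 had an unadjusted p under 0.05, beside 12.6% of all oligos. Oligos of 1 histone share much of their sequence, so these are not 14 independent measurements. In 7 of 14 the 564 Igi arrays all lay above both C57BL/6 arrays, as in 18.1% of all oligos. Centring each array on its median in place of loess moved the median of all oligos by 0.22 and put 14 of 14 above 0, and keeping spots of uneven background put 11 of 14 above 0. On slide 2, the only slide that held both groups, 11 of 14 were above 0 with a median of 0.16. That slide held a single array of each group, so these differences all come from the same pair of arrays.

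In all 3 H2B oligos the 564 Igi arrays at 4 months lay above both C57BL/6 arrays, as in 18.1% of all oligos. M400007964 read -0.02 and -0.03 in C57BL/6 and 0.41, 0.65 and 0.25 in 564 Igi. The groups did not overlap, and the difference of 0.46 (SE 0.15, 95% interval 0.14 to 0.78, 1.37-fold) had the lowest adjusted p of the members, 0.249. M400012461 read 0.16 and 0.40 in C57BL/6 and 0.81, 0.74 and 0.67 in 564 Igi. Its difference was also 0.46 (SE 0.18, interval 0.07 to 0.84, adjusted p = 0.324), again without overlap. M400008873, which shares most of its bases with it, read 0.47 on both C57BL/6 arrays and 0.70, 0.90 and 0.58 in 564 Igi, a difference of 0.26 (SE 0.18, interval -0.14 to 0.66, adjusted p = 0.587). Within slide 2 the differences of these oligos were 0.27, 0.51 and 0.11 in the same order.

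At the later ages H2B stayed above C57BL/6 in its means. M400007964 read 0.42, 0.07 and 0.54 at 8 months and 0.28, 0.39, 0.31 and 0.20 at 12 months. All 7 of these arrays lay above both C57BL/6 arrays, with a difference of 0.37 at 8 months (SE 0.15, interval 0.05 to 0.69, adjusted p = 0.292) and of 0.32 at 12 months (SE 0.14, interval 0.01 to 0.62, adjusted p = 0.373). M400012461 read 0.62, 0.26 and 1.02 at 8 months, which overlaps C57BL/6, and 0.57, 0.63, 0.63 and 0.42 at 12 months, which does not. M400008873 read 0.75, 0.37 and 0.95 at 8 months and 0.71, 0.81, 0.49 and 0.28 at 12 months, both overlapping C57BL/6. For M400007964, M400012461 and M400008873 the 8-month differences were 0.09, 0.10 and -0.10 within slide 2, and 0.57, 0.62 and 0.48 within slide 3. Each of these slides held a single array of either group. The 12-month differences were 0.41, 0.47 and 0.34 within slide 2, and 0.28, 0.12 and -0.08 within slide 3. The low array at 8 months was replicate 2 for all 3 oligos, the only array of that age on slide 2. Without it M400007964 differed from C57BL/6 by 0.51 (adjusted p = 0.0749) and M400012461 by 0.54 (adjusted p = 0.0840). Replicate 3 was the high array of all 3, and without it the differences were 0.27 (adjusted p = 0.556) and 0.16 (adjusted p = 0.745).

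H4 had the widest spread within groups, and 5 of its 7 oligos differed at 4 months by 0.39 to 0.58. These values depend on how spots of uneven background are handled in the fit, although every H4 oligo kept its value on all 12 arrays. With those spots kept, M400008877 differed by 0.19, M400007082 by 0.08, M400008876 by 0.01 and M400007644 by -0.09, while M400008862 stayed at 0.34. Outside these 5, M400007604 then differed by 0.10 against 0.23, and M400008874 by -0.35 against 0.27. The H2B oligos M400007964 and M400012461 differed by 0.38 each and M400008873 by 0.17. M400008877 read 0.79 and 1.01 in C57BL/6 and 1.54, 1.74 and 1.15 in 564 Igi. The groups did not overlap, and the difference was 0.58 (SE 0.24, interval 0.06 to 1.10, 1.49-fold, adjusted p = 0.349). Its near copy M400007082 differed by 0.56 (SE 0.25, interval 0.02 to 1.10, adjusted p = 0.381), also without overlap. It read 1.03 and 1.13 in C57BL/6 and 1.70, 1.91 and 1.32 in 564 Igi. The other H4 oligos differed by 0.23 to 0.49. M400007644 read 0.85 and 0.84 in C57BL/6 and 1.04, 1.62 and 1.07 in 564 Igi, a difference of 0.39 (SE 0.24, interval -0.14 to 0.93, adjusted p = 0.530) without overlap. M400008862, which lies furthest downstream, read 1.08 and 0.70 against 1.42, 1.66 and 1.06, and replicate 3 lay between the C57BL/6 arrays. M400008876 read 1.31 and 1.03 against 1.64, 1.87 and 1.29, again with replicate 3 between them. M400008874 read 1.10 and 1.28 in C57BL/6 and 1.48, 1.66 and 1.26 in 564 Igi, so replicate 3 fell between the C57BL/6 arrays. On slide 2 the H4 median difference was 0.16, with 4 of 7 above 0.

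Between 12 and 4 months of 564 Igi, the H4 differences had opposite signs on slides 1 and 2. Between 8 and 4 months 6 of 7 H4 oligos kept their sign over these slides, M400008874 (-0.36 and 0.08) being the exception. At 8 months M400008877 read 1.50, 0.87 and 1.13 and at 12 months 0.82, 1.50, 0.88 and 0.96, so a high and a low array occurred at both ages. Between 12 and 4 months its difference was -0.44 (SE 0.20, interval -0.87 to -0.01, adjusted p = 0.652). That difference was -0.82 within slide 1 and 0.35 within slide 2. M400008874 read 0.95, 1.58, 0.90 and 0.77 at 12 months and 1.21, 1.34 and 1.12 at 8 months. It differed between 12 and 4 months by -0.42 (SE 0.17, interval -0.79 to -0.04, adjusted p = 0.627), again with opposite signs on slide 1 (-0.62) and slide 2 (0.32). All 7 H4 oligos were below 0 on slide 1 in this comparison and above 0 on slide 2, where 1 or 2 arrays a group were compared. In every H4 oligo replicate 2 was the highest array at 12 months, on slide 2, and replicate 2 the highest at 4 months, on slide 1. M400007082 gave 1.71, 1.04 and 1.44 at 8 months and 0.97, 1.74, 1.09 and 1.11 at 12 months, the same order of arrays as M400008877 at 8 months. The part of the slide in these values was not tested by itself. A fit with the slide as a block was among the alternatives described below, and it called no member.

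M400007604 differed in its pattern from the 5 H4 oligos that start furthest upstream, and M400008862 went with it in part. It read 0.83 and -0.02 in C57BL/6, 0.41, 0.87 and 0.63 at 4 months, 1.15, 0.77 and 0.13 at 8 months and 0.41, 1.58, 0.99 and 1.33 at 12 months. Every 564 Igi group overlapped C57BL/6, whose 2 arrays lay far apart. Its 12-month mean was above the 4-month mean by 0.44 (SE 0.30, interval -0.22 to 1.11, adjusted p = 0.746), while the 5 H4 oligos that start furthest upstream were below it by 0.36 to 0.44. The difference between M400007604 and M400008877 varied over the 12 arrays with an SD of 0.51, against 0.34 for M400007604 and M400008862, which differ at 4 of 42 shared bases, and 0.05 for M400007082 and M400008877. From 8 to 12 months the difference was 0.39 in M400007604 and 0.18 in M400008862 and below 0 in the other 5, none of them called. On slide 3 the 12-month arrays differed from C57BL/6 by 1.18 in M400007604 and 0.55 in M400008862, and by -0.45 to 0.08 in the other 5. M400007604 had a residual SD of 0.47 within groups, larger than that of 97.1% of the oligos tested.

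The dim H4 oligos need separate mention. The reference signal of M400007644 lay between 61.8 and 88.5 and that of M400008874 between 66.8 and 91.3 on the scanner's scale, close to the offset of 50 added in the background correction. With an offset of 16 their differences at 4 months were 0.45 and 0.29, against 0.39 and 0.27. M400008874 was the only member with a reference spot not well above background, on 564 Igi 12 months replicate 1. In M400008877 the reference signal ranged from 188 to 383 and in M400007604 from 853 to 2117.

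H3 was the steadiest histone. All 3 oligos were below 0 on all 12 arrays, and their residual SDs of 0.10 to 0.12 were below the median of all oligos, 0.16. M400012464 read -0.32 and -0.28 in C57BL/6, -0.07, -0.06 and -0.26 at 4 months, -0.03, -0.29 and -0.23 at 8 months and -0.06, -0.16, -0.16 and -0.22 at 12 months. At 4 and 12 months it did not overlap C57BL/6, yet the differences of 0.17 (SE 0.11, interval -0.06 to 0.40, adjusted p = 0.541) and 0.15 (SE 0.10, adjusted p = 0.613) were small. M400006309 read -0.40 and -0.27 in C57BL/6 and -0.52, -0.48 and -0.30 at 4 months, a difference of -0.10 (SE 0.12, interval -0.36 to 0.16, adjusted p = 0.762). At 8 months M400006309 read -0.33, -0.57 and -0.35 and at 12 months -0.39, -0.29, -0.16 and -0.15. These overlap at all ages, and the F test over the ages gave it an unadjusted p of 0.139 and an adjusted p of 0.929. The H4 oligos M400008874 (0.0941) and M400008877 (0.122) had lower unadjusted p-values at the same adjusted p of 0.929 (limma), which was the lowest over the members.

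The spots of identical H3 sequence give the size of the technical error between spots at their own Cy3 signals of 13856 to 25002. The dimmer H4 oligos, with Cy3 signals of 110 to 3736, have no such pair, so their technical error was not measured. M400012462 read -0.56 and -0.28 in C57BL/6, -0.27, -0.39 and -0.27 at 4 months, -0.33, -0.50 and -0.30 at 8 months and -0.37, -0.27, -0.11 and -0.17 at 12 months, so all groups overlapped. M400012464 exceeded M400012462 by a mean of 0.14 (SD 0.14 over 12 arrays), with values from -0.06 to 0.33. The gap was 0.19 to 0.33 on slide 1, 0.02 to 0.24 on slide 2 and -0.06 to 0.07 on slide 3. A part of it therefore moved with the slide, and it stands beside differences between 564 Igi and C57BL/6 at 4 months of -0.10 to 0.17 in the 3 H3 oligos.

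The macroH2A-like oligo M200006926 read 0.21 and -0.24 in C57BL/6, 0.14, 0.23 and 0.38 at 4 months, 0.18, 0.14 and -0.34 at 8 months and 0.14, -0.04, 0.28 and 0.37 at 12 months. All groups overlapped. The difference from C57BL/6 was 0.26 at 4 months (SE 0.18, interval -0.14 to 0.66, adjusted p = 0.580), 0.01 at 8 months (SE 0.18, interval -0.39 to 0.41) and 0.20 at 12 months (SE 0.17, interval -0.18 to 0.58).

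The comparisons of the older 564 Igi mice with C57BL/6 use the same 2 C57BL/6 arrays as the comparison at 4 months, so they are not separate evidence. At 8 months 13 of 14 oligos were above 0 (49.6% of all oligos), 0 were called (0.624% of all oligos), 1 had an unadjusted p under 0.05 (14.0% of all oligos) and 1 did not overlap C57BL/6 (13.5% of all oligos). At 12 months 13 of 14 were above 0 (50.6%), 0 were called (0.906%), 1 had an unadjusted p under 0.05 (12.7%) and 3 did not overlap (10.2%). Median centring changed the count at 12 months to 9 of 14. The median difference over the members was 0.22 at 8 months and 0.14 at 12 months. M400007604 had the largest difference at 12 months, 0.67 (SE 0.34, interval -0.08 to 1.43, adjusted p = 0.452).

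Between ages of 564 Igi the values were smaller or changed with the setting. From 4 to 8 months 12 of 14 oligos were below 0 (53.1% of all oligos), with a lowest adjusted p of 1.00 and 0 unadjusted p under 0.05 (3.14% of all oligos). From 4 to 12 months 11 of 14 were below 0 (50.3%), 2 had an unadjusted p under 0.05 (7.65%) and 1, M400012461, did not overlap (4.35% of all oligos were lower without overlap). These splits are not settled: with uneven-background spots kept they were 7 of 14 and 5 of 14 below 0, and with median centring 14 of 14 in both. From 8 to 12 months 8 of 14 were below 0 (48.8%), with a lowest adjusted p of 0.990 and 0 unadjusted p under 0.05 (4.22%). Over all oligos 0, 1 and 0 were called in these comparisons, or 0%, 0.00381% and 0%. The F test over the ages called no member and 0.00381% of all oligos, and 0 members had an unadjusted p under 0.05, beside 4.89% of all oligos.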

How the data were processed

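Per the file headers, the scans were read by Agilent Feature Extraction (version 11.5.1.1), with lowess dye normalization (smooth factor 0.25). The deposited intensity columns hold each spot's mean signal and median local background, unnormalized. The deposited log ratio is log10 of reference over spleen and was used only as an alternative, with its sign turned. The deposited series table matches it within 0.005. From these, log2 of spleen over reference was computed with limma 3.58.1 (R 4.3.3): normexp with offset 50, then loess within arrays with control spots at weight 0. Spots of uneven local background received the array's median background for the fit and were then left out, a repair first made after results were seen. Oligos well above background in Cy3 on all arrays of at least 1 group were kept, and 26278 were tested.

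One fit over 12 arrays with a mean per group left 8 residual degrees of freedom beside 3.71 prior ones, and adjusted p-values under 0.05 counted as calls. It was also run on simulated data with independent noise. The differences planted there were larger than those of the members, so that run does not bear on differences of their size. Sequences come from the array files and were translated with Biopython 1.88. Values on every array are given, per histone, for the oligo with the highest and the lowest difference at 4 months and the smallest F test p. M400012462, M400007082 and M400012465 were added after values were seen and are also given on every array. M400007644, M400008862, M400008876 and the other end-of-H2A oligos were added then too, with values on some arrays at most. Members and lists were chosen with earlier results of these data known. The planned gene lists and cell type markers were not counted, since no protein table was at hand to match oligos to genes. Alternatives were 10 settings and the omission of each of 12 arrays.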

Additional observations from a re-analysis of the deposited data

Results flagged for a closer look

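M400008876, an H4 oligo, read 1.68 on 564 Igi 12 months replicate 2 and 1.05, 1.11 and 1.10 on the other arrays of that group, a gap large enough to stand apart by Dixon's criterion. All 14 members were examined this way in the group of 4 arrays, and chance sets apart about 1 in 20.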

How the results depend on the processing

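No histone oligo was called in any of the 7 tests under any of the 22 alternatives, which make 154 fits. The lowest adjusted p (limma) over the alternatives was 0.170 for 564 Igi at 4 months against C57BL/6, 0.0749 at 8 months, 0.234 at 12 months, 0.812 for 8 against 4 months, 0.204 for 12 against 4 months, 0.717 for 12 against 8 months and 0.475 for the F test. Requiring both channels above background left 13 members. Against C57BL/6 at 4 months, the differences of M400008874, M400007604, M400007644, M400012462 and M400006309 turned sign under 1 alternative each. Without turning, M400007964 ranged from 0.34 to 0.86, M400008877 from 0.19 to 0.92, M400007082 from 0.08 to 0.88 and M400008876 from 0.01 to 0.77. Of the values of histone medians 27 moved by at least the spread between replicates and 501 did not, whatever their sign. Of the values of named oligos 61 turned sign and 1121 did not, whatever the size of the shift. The cause was not tested.

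With the replicate number as a block, 0 members were called in the 7 tests, and the lowest adjusted p at 4 months was 0.270 (limma). Same-numbered arrays of different groups correlated at -0.23 to 0.29 in their deviations from group means, with 5 of 15 pairs above 0.1. Of pairs with different numbers 13 of 38 were above 0.1, and 4 of 12 arrays correlated best with their own number. The deviations of the 2 C57BL/6 arrays mirror each other, and some same-numbered arrays shared a slide. The check therefore cannot decide whether the numbers pair the samples. Of array pairs from different groups, 9 of 16 on the same slide and 9 of 37 on different slides were above 0.1. Precision is limited by the number of arrays, 2 of them C57BL/6.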

Other observations

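For H2A the search found only a macroH2A-like oligo. Oligos that encode the end of H2A were therefore looked for after the data had been seen. One of several further stretches tried, QAVLLPKK, found 6 oligos, M400007629, M400008865, M400012323, M400012457, M400012458 and M400012465. Without a protein table they could not be assigned to replication-linked or replacement H2A. Against C57BL/6, 564 Igi was higher by 0.63 to 0.99 at 4 months (limma, adjusted p 0.304 to 0.477). The range was 0.57 to 1.10 at 8 months (limma, adjusted p 0.224 to 0.477). It was 0.80 to 0.96 at 12 months (limma, adjusted p 0.255 to 0.319). At each age 0 of 6 were called, beside 0.407%, 0.624% and 0.906% of all oligos in order of age. M400012465 read -0.37 and -0.44 in C57BL/6, 0.08, 0.54 and 0.23 at 4 months, 0.67, -0.20 and 0.96 at 8 months and 0.08, 0.49, 0.80 and 0.26 at 12 months. Every 564 Igi array of this oligo lay above both C57BL/6 arrays. Its C57BL/6 SD of 0.06 was the smallest of the 6, against 0.24 to 0.43 in the others. M400012457 overlapped C57BL/6 at 8 months, with -0.37 on replicate 2 against -0.25 and -0.66. Of the 6 oligos, 5 did not overlap at 4 months (18.1% of all oligos), 3 at 8 months (13.5%) and 6 at 12 months (10.2%). Oligos with a left-out spot in the groups compared were not counted. At 8 months the median difference within slide 2 was 0.03, and within slide 3 M400012465 differed by 1.40. Some spots of M400007629 and M400012323 were left out as uneven. The oligos were picked with their direction known and share sequence, so the common direction is a description.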
